A study of Homo sapiens with 6 samples.

Results

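The matrix metalloproteinases (MMPs) and their tissue inhibitors (TIMPs) were followed in HaCaT cells with and without a STUB1 knockout. The 10 genes were chosen by name: MMP1, MMP2, MMP3, MMP9, MMP10, MMP13, MMP14, TIMP1, TIMP2 and TIMP3. All 10 had a row among the 20014 genes of the deposited table. HaCaT is an immortalized human keratinocyte line, and STUB1 (CHIP) is a ubiquitin ligase that works with the HSP70 and HSP90 chaperones. The knockout group held 3 libraries of cells given a guide RNA against STUB1 on a lentiviral CRISPR vector (genotype STUB1 knockout, no special treatment). The control group held 3 libraries of cells given a control guide on that vector (genotype WT, no special treatment). Per the labels, sorted cells were grown into colonies and checked by immunoblot for STUB1. No label states if a group's libraries are separate clones or cultures; the p-values therefore cover library-to-library spread, possibly technical.

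MMPs are zinc proteases that cut matrix and cell surface proteins. They are made as inactive precursors whose propeptide has to be removed, and TIMPs block the active enzyme by occupying its zinc site. In skin, keratinocytes at a wound edge use collagenases and stromelysins to move over and through matrix. Many MMP promoters carry a site for the AP-1 factors (FOS and JUN dimers) shortly upstream of a TATA box.

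In knockout cells MMP1, MMP10 and MMP13, secreted enzymes of a gene cluster on chromosome 11, were lower, and MMP14, a membrane-bound MMP, was higher. MMP1 (collagenase-1) stood at 33.9%, MMP10 (stromelysin-2) at 52.0% and MMP13 (collagenase-3) at 27.0% of the control mean, while MMP14 stood at 134%. MMP2 (gelatinase A), on chromosome 16, stood at 51.4%. Of the inhibitors, TIMP2 and TIMP3 were at 102% and 108% and TIMP1 was at 80.7% of control, none of them past the test. In bulk RNA, fewer cells expressing a gene and less of its RNA per cell cannot be told apart. The MMPs that fell were all expressed at low levels, at most 1.79 FPKM in any library (read fragments scaled to transcript length and library size), whereas MMP14 exceeded 39 FPKM everywhere.

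Promoters are shown for genes that moved in opposite directions. The 250 bases before the annotated start (RefSeq, GRCh38.p14) are given 5′ to 3′ on the strand of the gene. The genes are MMP10, which fell, MMP7 (matrilysin), a gene of the same cluster that did not fall, and MMP14, which rose. Capitals mark the AP-1 motif TGANTCA, the TATA box TATAAA and the GC box GGGCGG, each searched on both strands, and no marked matches overlap. The stretches are chr11:102780629-102780878 (minus strand), chr11:102530748-102530997 (minus strand) and chr14:22836335-22836584 (plus strand).
MMP10: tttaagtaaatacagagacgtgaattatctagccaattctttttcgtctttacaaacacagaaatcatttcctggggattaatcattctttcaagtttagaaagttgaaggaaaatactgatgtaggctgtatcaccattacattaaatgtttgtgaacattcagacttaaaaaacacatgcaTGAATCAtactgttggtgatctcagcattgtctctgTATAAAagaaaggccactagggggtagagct
MMP7: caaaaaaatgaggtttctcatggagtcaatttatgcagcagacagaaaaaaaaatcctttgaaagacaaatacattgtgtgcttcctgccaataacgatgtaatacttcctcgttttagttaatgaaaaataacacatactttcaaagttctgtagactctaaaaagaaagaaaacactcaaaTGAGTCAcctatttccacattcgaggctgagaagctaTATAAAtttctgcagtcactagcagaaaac
MMP14: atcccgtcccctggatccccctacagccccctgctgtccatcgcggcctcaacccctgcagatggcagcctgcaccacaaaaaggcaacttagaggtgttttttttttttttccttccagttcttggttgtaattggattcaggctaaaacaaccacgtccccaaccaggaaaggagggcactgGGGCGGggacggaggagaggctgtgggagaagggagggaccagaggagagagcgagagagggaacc
MMP10 and MMP7 each held 1 AP-1 motif with its first base at -67 (the base before the start being -1) and 1 TATA box, at -31 in MMP10 and -30 in MMP7. MMP14 held neither and had 1 GC box at -66. Among 35116 promoter windows of this length, 6.57% held the AP-1 motif, 10.7% the TATA box and 42.6% the GC box. TIMP1 and TIMP3 had no AP-1 motif or TATA box in the window, with 2 and 5 GC boxes. MMP1, MMP2, MMP3, MMP9, MMP13 and TIMP2 were not among the promoter windows. A match describes letters in this window and was not tested as a site.

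STUB1 mRNA, the check on the labels, measured 21.6, 24.7 and 23.2 FPKM in knockout libraries, against 37.8, 41.9 and 52.7 FPKM in control libraries. It was lower in all knockout libraries (log2 fold change -0.89, SE 0.116; limma with Benjamini-Hochberg adjustment over all tested genes, adjusted p = 0.00125). An edit that shifts the reading frame need not remove the mRNA, so this does not measure the protein. The depth estimated from the steps of low FPKM values was 45600000 to 52800000 reads per library. One library differed from the rest: control 3 had a Pearson's r of at most 0.9883 to the other controls, where every other pair within a group reached at least 0.9959. Long transcripts were relatively low in control 3, by -0.104 log2 units per doubling of length, against -0.00939 to 0.0349 elsewhere. All 12 keratinocyte markers were in the table, summing to 791 to 795 FPKM in knockout and 507 to 630 FPKM in control libraries. Of 10 tested, 3 were higher (KRT5, KRT6A and COL17A1), against 9.58% of all tested genes. Their log2 fold changes were 0.82, 0.9 and 0.72 (limma, adjusted p at most 0.00479). The other 7 did not pass. TP63, ITGA6, ITGB4 and CDH1 had 0.01, -0.03, -0.03 and 0.11, and DSG3, DSC3 and PKP1 had 0.23, 0.29 and 0.31. The higher sum is therefore not a rise of all markers. The part of the markers in the MMP results was not tested. Of the 12 markers, KRT14 averaged 0.213 FPKM in knockout and 0.260 FPKM in control libraries. KRT17 averaged 0.454 FPKM in knockout and 0.333 FPKM in control libraries, so both added almost nothing to the sum. Sequence shared with other genes was not examined for KRT14 and KRT17, so these values need not give their true levels. Fibroblasts are a main source of MMP1, MMP2 and MMP3 in skin. The 10 fibroblast markers summed to 0.447 to 0.568 FPKM in knockout and 0.469 to 0.552 FPKM in control libraries, nearly all of it COL1A1, and DCN was listed at 0 throughout. PTPRC, the pan-leukocyte marker, averaged 0 FPKM in knockout and 0.00567 FPKM in control libraries. The 8 leukocyte markers summed to 22.9 to 25.6 FPKM in knockout and 21.6 to 22.8 FPKM in control libraries, nearly all of it CD68, a lysosomal gene. Of the same list, CD14 averaged 0.143 FPKM in knockout and 0.481 FPKM in control libraries and ITGAM 0.0597 FPKM in knockout and 0.131 FPKM in control libraries, both lower with no filter (limma, adjusted p = 0.00354 and 0.0492), and their part in the MMP results was not tested. The 7 melanocyte markers, with TYR at 0, summed to 6.48 to 7.66 FPKM in knockout and 6.77 to 7.41 FPKM in control libraries. The 6 endothelial markers, with KDR at 0, summed to 1.89 to 2.03 FPKM in knockout and 2.07 to 3.06 FPKM in control libraries.

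Across all tested genes (mean of at least 1 FPKM, values as log2(FPKM + 1)), 22.9% passed the threshold of 0.05, with 9.58% higher and 13.3% lower in the knockout (1079 and 1500 genes, against 667 and 1622 as TPM). Of the 10 members, 6 reached that mean; 1 of these rose, 2 fell and 3 did not pass. MMP1 and MMP10 averaged under 1 FPKM in the knockout and passed the filter through their control libraries, so this count supports nothing. A fit with no filter gave values for MMP2, MMP3, MMP9 and MMP13, and there 15.3% of 16782 genes passed, 6.27% higher and 9.0% lower in the knockout. By that fit 5 of the 10 members passed, 1 higher and 4 lower. On the log2(FPKM + 1) scale the changes of these low genes are understated, so percentages of the control mean are given as well. For 8 of the 10 members the 2 groups did not overlap, 6 lower and 2 higher in the knockout, against 37.4% of all genes with a value (20.6% lower, 16.8% higher). Among the 6 tested members it was 5, 3 lower and 2 higher, against 45.6% of tested genes (25.3% lower, 20.4% higher). The exact two-sided permutation test of 3 against 3 libraries cannot go below 0.1, and these 8 members all stood at 0.1. Without control 3 and with no filter, MMP1, MMP10 and MMP14 had log2 fold changes of -0.69, -0.51 and 0.38 (limma, adjusted p = 0.00733, 0.044 and 0.0165).

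**Figure D1:**
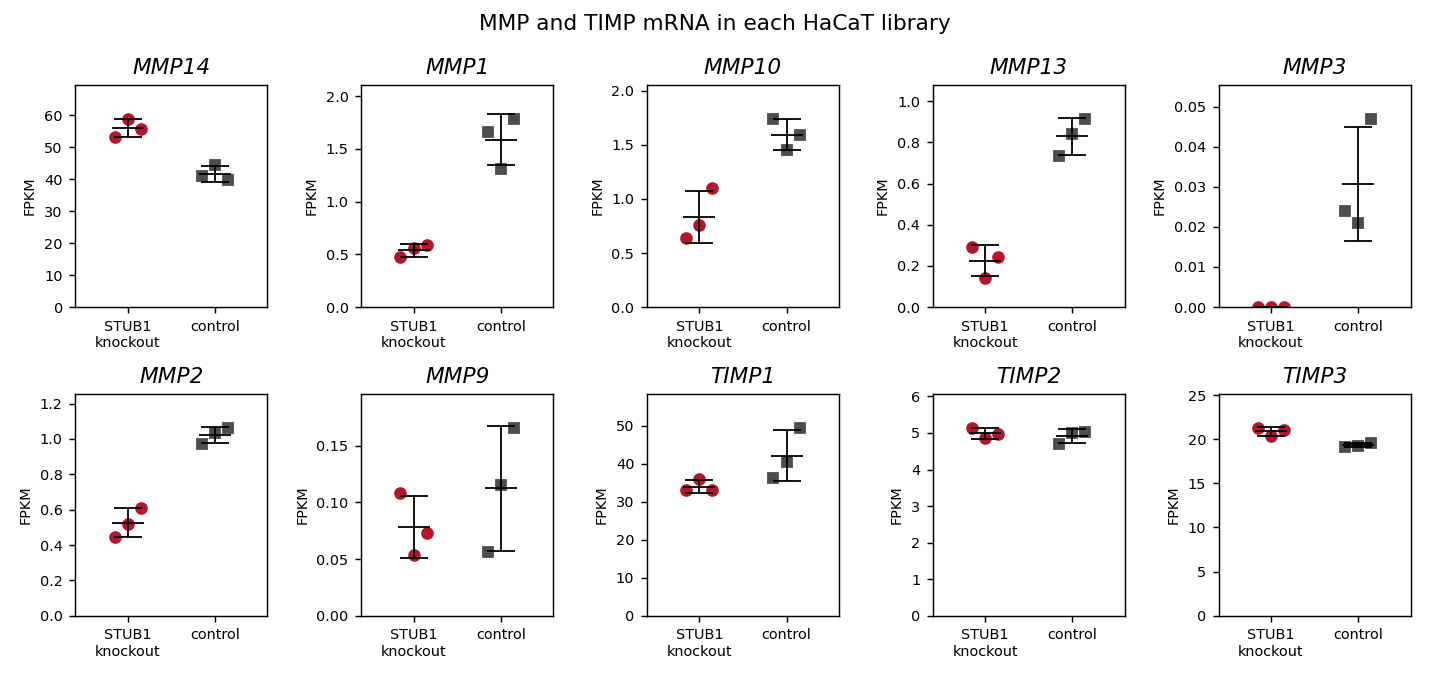
FPKM (vertical axes, each from 0) of the 10 genes in 3 STUB1 knockout libraries (circles) and 3 control libraries (squares); bars give the mean and SD. The groups are apart for all but MMP9 and TIMP2, with MMP14 and TIMP3 higher and the other 6 lower in the knockout.

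MMP1, the interstitial collagenase that opens the triple helix of fibrillar collagen, measured 0.471, 0.558 and 0.586 FPKM in knockout libraries, against 1.67, 1.31 and 1.79 FPKM in control libraries. Every knockout library lay below every control library, and the highest knockout value was under the lowest control value by a wide margin relative to the spread in either group. MMP1 was 2.95-fold lower in the knockout by the ratio of means (log2 fold change -0.75, SE 0.0754; limma with no filter, Benjamini-Hochberg adjusted p = 0.00296). In the filtered fit, which MMP1 entered through its control libraries, the adjusted p was 0.000546. At the estimated depth these levels stood for about 44 to 61 reads in knockout and 135 to 163 reads in control libraries. With a pseudocount of 0.1 in place of 1 the log2 fold change was -1.40. MMP1 shares 150 of its 1970 exonic bases with the pseudogene WTAPP1 on the opposite strand, and without a stated strand setting reads of that stretch cannot be assigned.

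MMP10 encodes stromelysin-2, which cleaves basement membrane proteins and activates other pro-MMPs. Its level was 0.635, 0.758 and 1.10 FPKM in knockout libraries, against 1.742, 1.450 and 1.596 FPKM in control libraries. Knockout 3 was the highest of its group and still below all control libraries. On the log2 scale MMP10 fell by 0.51 (SE 0.0982; limma with no filter, Benjamini-Hochberg adjusted p = 0.0199), with a change of -0.89 under a pseudocount of 0.1. With no filter the call was lost without knockout 1, knockout 2, control 1 or control 2 (adjusted p = 0.0523 to 0.0978). In the filtered fit, which MMP10 entered through its control libraries, the adjusted p was 0.0066. There it was lost without knockout 2 (0.0547) and when each library was corrected for transcript GC and length (log2 fold change -0.31, adjusted p = 0.0778, and 0.121 with the replicate number as a block), though not after that correction with no filter (-0.38, adjusted p = 0.0281).

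MMP13 encodes collagenase-3, known from migrating keratinocytes and from carcinomas. It measured 0.290, 0.142 and 0.241 FPKM in knockout libraries, against 0.734, 0.840 and 0.915 FPKM in control libraries. The groups were far apart, with the control mean 3.70-fold above the knockout mean. At the estimated depth this was 19 to 39 reads in knockout and 95 to 124 reads in control libraries. In the fit with no filter MMP13 fell by 0.58 on the log2 scale (SE 0.0556; limma, Benjamini-Hochberg adjusted p = 0.00267), and its log2 fold change was -1.54 with a pseudocount of 0.1.

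MMP3 (stromelysin-1) was at the edge of detection. It was listed at 0 in all 3 knockout libraries, against 0.024, 0.021 and 0.047 FPKM in control libraries, an estimated 2 to 4 reads each. With no filter its log2 fold change was -0.04 (limma, Benjamini-Hochberg adjusted p = 0.0644), and no ratio is given against a group at 0. It passed with a pseudocount of 0.1 (adjusted p = 0.0357) and without control 3 (0.0466), and its sign turned after the GC and length correction (0.07, adjusted p = 0.247). MMP3 and MMP10 have 59 windows of 50 bases in common, 3.0% of the longest MMP3 transcript and 3.45% of that of MMP10, so a few reads could be shared. MMP1, MMP13 and MMP14 shared no such window with any other annotated gene. That count does not take in the 150 exonic bases that MMP1 shares with WTAPP1 on the opposite strand.

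The gelatinases, MMP2 and MMP9, cut denatured and basement membrane collagen. MMP2 measured 0.448, 0.517 and 0.611 FPKM in knockout libraries, against 0.972, 1.03 and 1.06 FPKM in control libraries. All knockout libraries lay below all control libraries, at an estimated 105 to 159 reads in knockout and 219 to 265 reads in control libraries. With no filter MMP2 fell by 0.41 on the log2 scale (SE 0.0462; limma, Benjamini-Hochberg adjusted p = 0.00406), and had -0.85 with a pseudocount of 0.1. MMP2 shares 174 of its 4933 exonic bases with AC007336.3 on its own strand, in 127 windows of 50 bases (3.44%), so a few reads could be shared. MMP9 was barely detected, with 0.108, 0.054 and 0.073 FPKM in knockout libraries, against 0.056, 0.115 and 0.166 FPKM in control libraries. The groups overlapped and the difference was not detectable at this depth (adjusted p = 0.492, limma with no filter). MMP9 shares 430 of its 2336 exonic bases with SLC12A5-AS1 on the opposite strand. MMP2 lies on chromosome 16 at 55389700 to 55506691 and MMP9 on chromosome 20 at 46008908 to 46016561 (GENCODE 29, GRCh38).

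MMP14 (MT1-MMP) sits in the cell membrane, cuts collagen at the cell surface and activates pro-MMP2 in a complex with TIMP2. Its gene lies on chromosome 14 at 22836557 to 22849027. It was the most abundant MMP of the set and the sole member that rose. It measured 53.2, 58.8 and 55.6 FPKM in knockout libraries, against 40.9, 44.3 and 39.6 FPKM in control libraries. All knockout libraries were above all control libraries, and the means were 55.9 ± 2.83 FPKM in the knockout and 41.6 ± 2.42 FPKM in the control (SD, n = 3 each). On the log2 scale MMP14 rose by 0.42 (SE 0.0755; limma, Benjamini-Hochberg adjusted p = 0.00532), and MMP14 passed under every alternative run on it except with no filter and without control 1 (0.0545) or knockout 3 (0.0599). MMP14 made up 96.5%, 96.7% and 95.5% of the summed FPKM of the 7 MMP members in knockout libraries, against 88.7%, 90.3% and 87.7% in control libraries. MMP7 and MMP28, outside the 7, averaged 29.7 and 4.16 FPKM in the knockout and 25.0 and 5.34 FPKM in the control. Their levels are not in that sum, so these are not shares of all MMP mRNA.

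**Figure D2:**
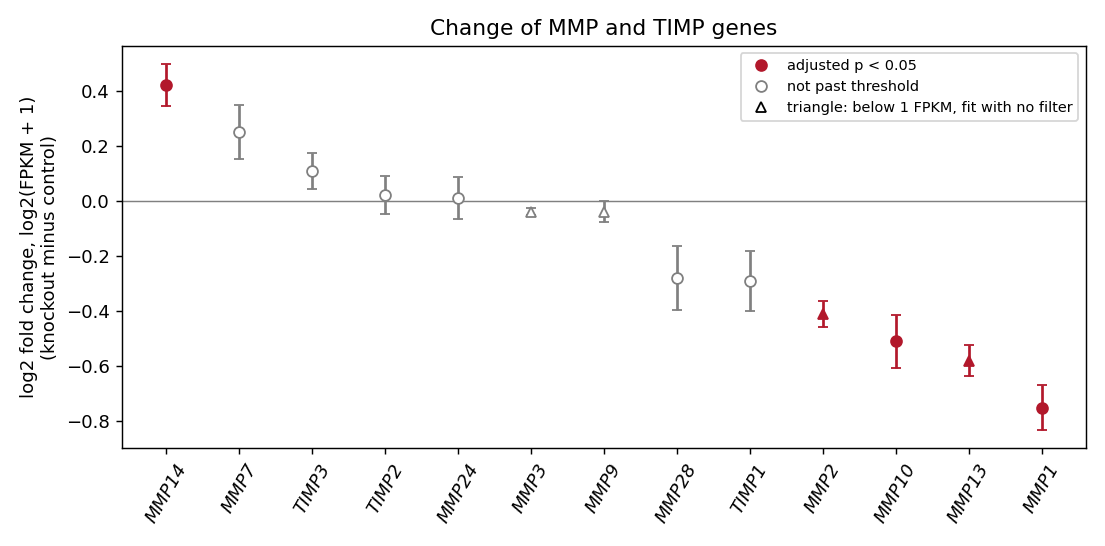
Log2 fold change (knockout minus control, log2(FPKM + 1) scale) with its SE for the 10 members and for MMP7, MMP24 and MMP28, the other MMP genes with a mean of at least 1 FPKM. MMP14 is past the threshold on the higher side at 0.42, and MMP2, MMP10, MMP13 and MMP1 are past it on the lower side, down to -0.75; triangles come from the fit with no filter.

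None of the TIMPs passed. TIMP1, a soluble inhibitor of most secreted MMPs that is weak against MMP14, measured 33.07, 35.97 and 33.05 FPKM in knockout libraries, against 36.4, 40.5 and 49.6 FPKM in control libraries. The groups did not overlap but came close, and control 3 was far above the other control libraries. Its log2 fold change of -0.29 (SE 0.108) did not pass (limma, Benjamini-Hochberg adjusted p = 0.0808). It passed after the GC and length correction (-0.30, adjusted p = 0.00734, and 0.0161 with the block), as TPM, with every library rescaled to 1 total (0.0372), with limma's weights that count noisier libraries less (0.00791), without control 1 (0.0431) and without control 3 (-0.17, adjusted p = 0.045).

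TIMP2, which both inhibits MMP14 and bridges it to pro-MMP2, differed little between groups. It measured 5.15, 4.85 and 4.97 FPKM in knockout libraries, against 4.69, 5.01 and 5.03 FPKM in control libraries, with overlapping groups (log2 fold change 0.02, SE 0.0692; limma, Benjamini-Hochberg adjusted p = 0.861). TIMP3, which binds to the matrix and also inhibits ADAM proteases, measured 21.3, 20.3 and 21.1 FPKM in knockout libraries, against 19.2, 19.2 and 19.6 FPKM in control libraries. Its groups did not overlap. Its log2 fold change of 0.11 (SE 0.0653) did not pass (limma, Benjamini-Hochberg adjusted p = 0.253), and passed with library weights (0.0152). The genes lie on chromosome X at 47582313 to 47586789 (TIMP1), chromosome 17 at 78852977 to 78925387 (TIMP2) and chromosome 22 at 32801701 to 32863043 (TIMP3). TIMP1 and TIMP3 each lie inside a synapsin gene on the opposite strand, SYN1 and SYN3, with no exonic base in common. TIMP2 shares 198 exonic bases with CEP295NL on its own strand and 367 with a non-coding antisense gene, of 5633.

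By level, MMP14 came first in all knockout libraries, ahead of TIMP1, TIMP3 and TIMP2 in that order without overlap. In control libraries MMP14 and TIMP1 overlapped, at 41.6 ± 2.42 and 42.2 ± 6.73 FPKM (SD, n = 3), and TIMP3 and TIMP2 followed. MMP10 and MMP1 did not differ beyond their spread in the control, at 1.596 ± 0.146 and 1.59 ± 0.245 FPKM, with MMP2, MMP13, MMP9 and MMP3 below them. MMP1 and MMP2 overlapped in the knockout. The 7 MMPs summed to 55.1, 60.8 and 58.2 FPKM in knockout libraries, against 46.1, 49.0 and 45.2 FPKM in control libraries. This sum leaves out MMP7 and MMP28, as does the ratio below. The 3 TIMPs summed to 59.5, 61.1 and 59.1 FPKM in knockout libraries, against 60.3, 64.8 and 74.2 FPKM in control libraries. The ratio of these mRNA sums lay at 0.926 to 0.995 in knockout libraries, against 0.609 to 0.764 in control libraries, with control 3 lowest. These are transcript levels and say nothing of active enzyme.

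MMP10, MMP1, MMP3 and MMP13 lie on the minus strand within 185 kb of chromosome 11, from 102770503 to 102955734 (GENCODE 29, GRCh38). The cluster goes on to MMP7, 435 kb from end to end. Read in order of position, MMP7 was the exception in direction. MMP7, an epithelial protease without the hemopexin domain of the others, measured 31.3, 28.6 and 29.3 FPKM in knockout libraries, against 24.6, 21.9 and 28.5 FPKM in control libraries. Its groups were apart by a narrow margin, set by control 3, and it did not pass (log2 fold change 0.25, SE 0.0971; limma, Benjamini-Hochberg adjusted p = 0.0966). MMP7 passed, on the higher side, without control 3 (0.34, adjusted p = 0.000839), with library weights (0.28, adjusted p = 8.95e-05) and after the GC and length correction (0.47, adjusted p = 0.000536, and 0.0029 with the block). Without control 2 its log2 fold change was 0.16. MMP8, MMP12 and MMP20, between or beside these genes, were under 0.05 FPKM in every library, and MMP27 was listed at 0.

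Beyond the cluster, BIRC3, an inhibitor of apoptosis and ubiquitin ligase, fell to 9.13 ± 1.33 FPKM in the knockout, against 13.5 ± 0.934 FPKM in the control (SD, n = 3; limma, Benjamini-Hochberg adjusted p = 0.00841). TMEM123 fell to 65.9 ± 6.08 FPKM in the knockout, against 83.5 ± 3.87 FPKM in the control (adjusted p = 0.0218 by limma). On the other side DCUN1D5, a cullin neddylation factor, fell to 6.37 ± 0.0999 FPKM in the knockout, against 8.06 ± 0.940 FPKM in the control (adjusted p = 0.039 by limma, and 0.0669 with no filter). YAP1, BIRC2 and DYNC2H1 had log2 fold changes of 0.03, -0.10 and -0.06 and did not pass. Within 5 Mb of MMP1, 15 other genes were tested, the cluster genes MMP7 and MMP10 among them. Of these genes 2 rose and 6 fell, MMP10 among the falls, against 9.58% and 13.3% of all tested genes. Their median log2 fold change was -0.10, and none was as low as MMP1.

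**Figure D3:**
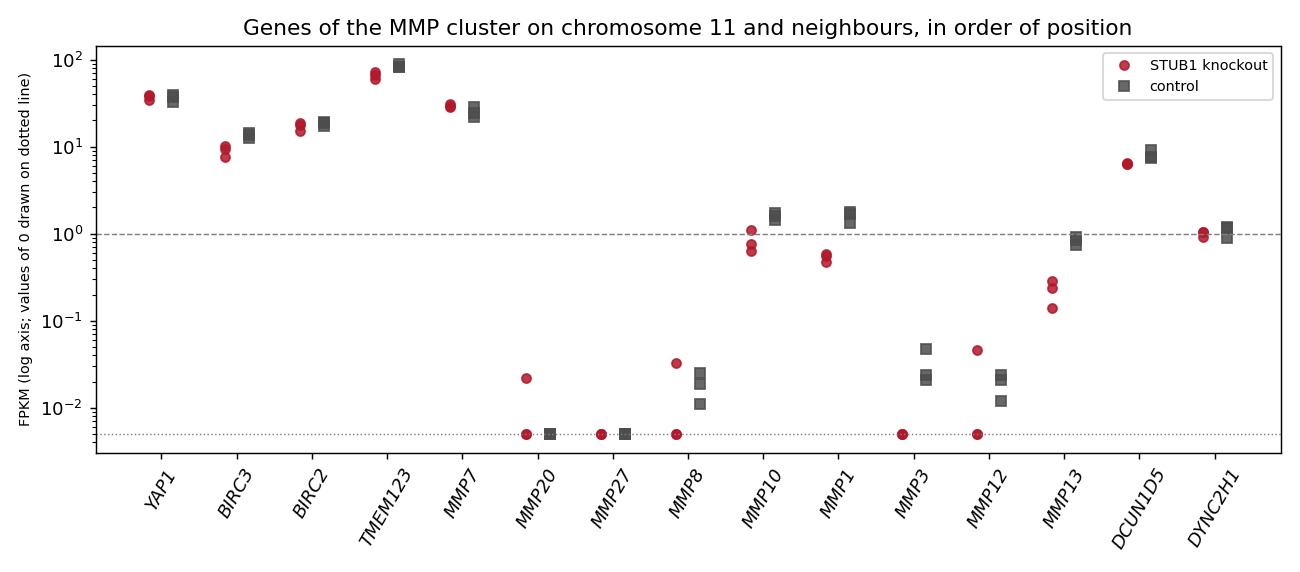
FPKM (log axis) of the genes of the chromosome 11 cluster and their neighbours in order of position, in 3 STUB1 knockout libraries (circles, left) and 3 control libraries (squares, right); values of 0 sit on the dotted line and the dashed line marks 1 FPKM. MMP10, MMP1 and MMP13 are lower in all knockout libraries, MMP7 is not, and MMP20, MMP27, MMP8, MMP3 and MMP12 are near or at 0.

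Neighbours of the other members gave a contrast for TIMP2. Of 133 other genes tested within 5 Mb of it on chromosome 17, 91 fell (68.4%) and 0 rose at an adjusted p under 0.05 in limma (105 lower and 0 higher at an unadjusted p under 0.05), with a median log2 fold change of -0.38. TIMP2, at 0.02, was above 127 of them. For the neighbour counts given here, the shares over all tested genes were 13.3% lower and 9.58% higher. MMP28 (epilysin), also on chromosome 17, measured 4.009, 4.198 and 4.274 FPKM in knockout libraries, against 4.22, 5.52 and 6.30 FPKM in control libraries. These groups overlapped, and of 84 neighbours 31 fell and 0 rose in limma (41 and 0 at an unadjusted p under 0.05), with a median of -0.18. Its log2 fold change of -0.28 did not pass (limma, Benjamini-Hochberg adjusted p = 0.103), but passed after the GC and length correction (-0.39, adjusted p = 0.00956, and 0.015 with the block) and without control 1 (-0.42, adjusted p = 0.0205), and stood at -0.08 with library weights. MMP14 lay above 71 of its 78 tested neighbours, whose median was 0.10. Of these 78, 15 rose and 1 fell in limma (23 and 5 at an unadjusted p under 0.05). MMP2 lay below 44 of its 45, whose median was 0.03. Of these 45, 6 rose and 3 fell in limma (9 and 7 at an unadjusted p under 0.05). Of 44 neighbours of TIMP1 on the X chromosome, 3 fell and 0 rose in limma (14 and 0 at an unadjusted p under 0.05), with a median of -0.12. The 80 neighbours of TIMP3 had a median of 0.14, close to its own 0.11, and 18 rose and 1 fell in limma (27 and 4 at an unadjusted p under 0.05).

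**Figure D4:**
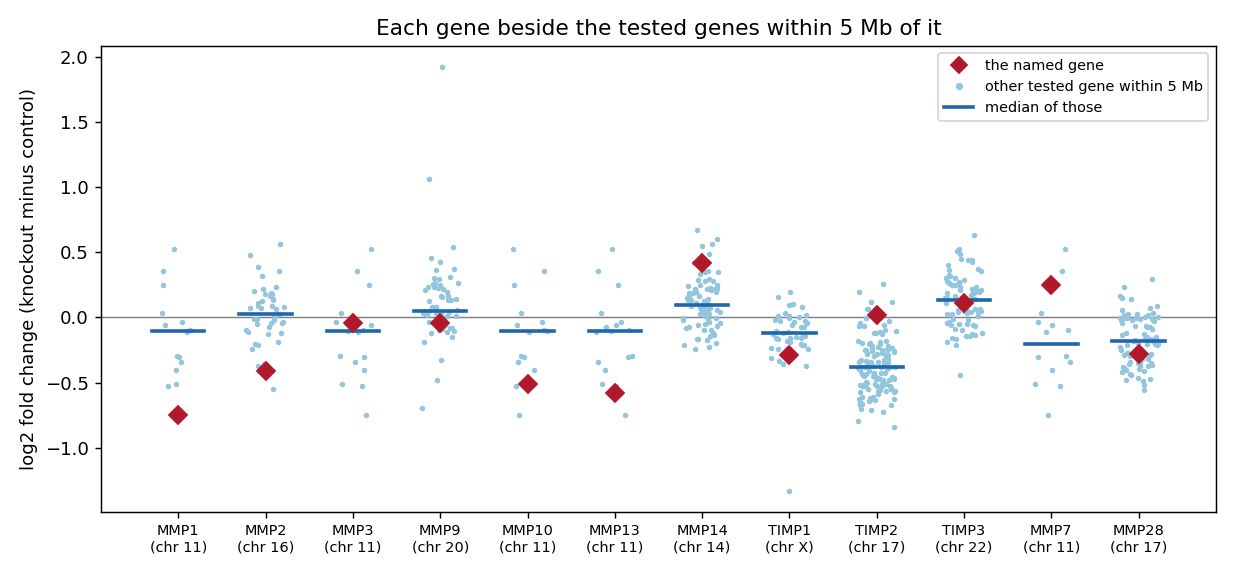
Log2 fold change (knockout minus control) of each gene (diamond) and of the other tested genes within 5 Mb of it (dots), with the median of those (bar); diamonds of MMP2, MMP3, MMP9 and MMP13 come from the fit with no filter. TIMP2 sits near 0 among neighbours with a median of -0.38, and MMP1 sits below all 15 of its neighbours.

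Of the remaining 16 MMP genes of the list, 3 had a mean of at least 1 FPKM and 0 of these passed in limma (1 higher and 1 lower at an unadjusted p under 0.05). Besides MMP7 and MMP28 this was MMP24, a brain-enriched membrane-type MMP, at 1.14 ± 0.163 FPKM in the knockout and 1.13 ± 0.0993 FPKM in the control (SD, n = 3). TIMP4 was detected in 1 library alone, at 0.035 FPKM in knockout 2. RECK, a membrane-anchored MMP inhibitor, averaged 0.673 ± 0.0927 FPKM in the knockout and 0.810 ± 0.153 FPKM in the control, below the filter. TFPI2, a secreted serine protease inhibitor that protects matrix, fell to 106 ± 8.28 FPKM in the knockout, against 148 ± 13.2 FPKM in the control (log2 fold change -0.48; Benjamini-Hochberg adjusted p = 0.00716 by limma). TFPI2 passed under every alternative run on it, with -0.24 after the GC and length correction.

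Proteases that activate pro-MMPs moved in both directions. Of 16 tested genes of pro-MMP activation and surface partnership, 4 rose, 3 fell and 9 did not pass, with a median log2 fold change of 0.11 against -0.01 over all tested genes. The shares over all tested genes were 9.58% higher and 13.3% lower. FURIN, the convertase that removes the propeptide of MMP14, measured 24.1, 26.9 and 25.0 FPKM in knockout libraries, against 17.0, 18.4 and 14.1 FPKM in control libraries. The groups did not overlap, and FURIN was 1.53-fold higher by means (log2 fold change 0.59, SE 0.0999; limma, Benjamini-Hochberg adjusted p = 0.00385). PLAU (urokinase), which makes the plasmin that activates secreted pro-MMPs, measured 59.0, 59.3 and 60.7 FPKM in knockout libraries, against 91.7, 97.9 and 103 FPKM in control libraries. It fell to 61.3% of control (log2 fold change -0.70; Benjamini-Hochberg adjusted p = 0.000427 by limma), while PLAT, the tissue plasminogen activator, rose 1.36-fold. LRP1, the endocytic receptor that clears MMP-inhibitor complexes, rose 2.13-fold, and control 3 was its lowest library. KLK5, a kallikrein that starts epidermal protease cascades, fell to 48.3% of control. The adjusted p was at most 0.00436 by limma for PLAT, LRP1 and KLK5. KLK7 fell to 79.9% (adjusted p = 0.0364 by limma), a call lost with no filter (0.0613), after the GC and length correction (-0.17, adjusted p = 0.0504, and 0.0624 with the block) and without any 1 library other than control 3 (0.0618 to 0.164). BSG (EMMPRIN), an MMP inducer on the cell surface, and CD44, a docking protein for MMPs, had log2 fold changes of 0.17 and 0.14 and did not pass (adjusted p = 0.158 and 0.224).

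Among the related ADAM and ADAMTS proteases 9 were tested, of which 2 rose, 0 fell and 7 did not pass by limma, with a median of 0.09 (4 higher and 0 lower at an unadjusted p under 0.05). Of all tested genes 22.9% passed, 9.58% higher and 13.3% lower, so the number that passed is near that share. ADAM28 rose to 8.02 ± 0.124 FPKM in the knockout, against 4.70 ± 0.225 FPKM in the control (SD, n = 3; limma, Benjamini-Hochberg adjusted p = 0.000473). ADAM8 rose 1.26-fold (adjusted p = 0.022 by limma), a call lost without any 1 of the knockout libraries or control 1 (0.0603 to 0.0928), as TPM (0.0502) and after the GC and length correction with the block (0.15, adjusted p = 0.0796). ADAM10 and ADAM17, the main sheddases of keratinocytes and targets of TIMP3 among others, had log2 fold changes of -0.01 and -0.11 and did not pass. ADAM19 had 0.28 (adjusted p = 0.0645), and passed with the replicate block (0.0338), with 0.17 without control 3 (0.0628).

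Transcription factors with sites in MMP promoters were all expressed. Of 21 tested, 2 rose, 3 fell and 16 did not pass, with a median of 0.12. Among all tested genes 9.58% rose and 13.3% fell, so this count sets the list apart little. FOSB and JUN, subunits of AP-1, rose. FOSB measured 19.0, 20.0 and 31.6 FPKM in knockout libraries, against 9.92, 12.3 and 13.2 FPKM in control libraries, with knockout 3 far above the others (log2 fold change 0.91; Benjamini-Hochberg adjusted p = 0.00783 by limma). JUN measured 39.5, 40.8 and 46.1 FPKM in knockout libraries, against 29.2, 32.0 and 32.4 FPKM in control libraries (log2 fold change 0.42; Benjamini-Hochberg adjusted p = 0.00796 by limma). FOS and JUNB had log2 fold changes of 0.58 and 0.32 and did not pass (adjusted p = 0.0828 and 0.139), but passed with the replicate block (0.00164 and 0.0474). Without control 3 they were 0.82 and 0.50 (adjusted p = 0.000146 and 3.74e-05). ELF3, an epithelial ETS factor, had -0.23 (adjusted p = 0.0673, and 0.0485 with the block). ETV4, of the PEA3 group of ETS factors, fell to 70.5% of control (log2 fold change -0.48; Benjamini-Hochberg adjusted p = 0.00196 by limma). ETV5, of the same group, fell to 84.3% (adjusted p = 0.0447 by limma), a call lost with the replicate block (0.0571), as TPM (0.0552) and without any 1 library other than control 3 (0.0993 to 0.168). STAT3 fell to 76.1% (adjusted p = 0.0313 by limma), a call lost with no filter (0.0607) and without any 1 library other than control 3 (0.07 to 0.123). ETV4 and STAT3 lie on chromosome 17, as do TIMP2 and MMP28. Within 5 Mb of those, 91 of 133 and 31 of 84 tested genes fell and 0 rose, as given above. ETV4 and STAT3 lie outside both windows, and the part of the chromosome in their falls was not tested.

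Of 16 tested ligands and receptors known to induce MMPs, 0 rose by limma, 4 fell and 12 did not pass, with a median of 0.02 (4 higher and 5 lower at an unadjusted p under 0.05). The number that passed is near the 22.9% of all tested genes (9.58% higher, 13.3% lower). Corrected for GC and length, the list had 6 higher and 4 lower genes. The falls included AREG and EREG, ligands of the EGF receptor. AREG measured 80.1, 74.5 and 83.2 FPKM in knockout libraries, against 122.9, 122.9 and 148.5 FPKM in control libraries (log2 fold change -0.72; Benjamini-Hochberg adjusted p = 0.00124 by limma). EREG stood at 48.4% of control (log2 fold change -0.98, adjusted p = 0.000535 by limma). IL6R, the interleukin-6 receptor, fell to 0.979 ± 0.0913 FPKM in the knockout, against 1.76 ± 0.195 FPKM in the control (SD, n = 3; limma adjusted p = 0.00751 with no filter). In the filtered fit, which IL6R entered through its control libraries, it was 0.00278. TGFBR1 fell to 79.1% (adjusted p = 0.0308 by limma), a call lost with no filter (0.0506) and without knockout 2, knockout 3 or control 1 (0.0867 to 0.106), and had -0.18 in place of -0.31 after the GC and length correction. IL1A and IL1B, inducers of MMP1, had log2 fold changes of -0.07 and 0.18 and did not pass (adjusted p = 0.536 and 0.091). IL1B passed, on the higher side, after the GC and length correction (0.30, limma adjusted p = 0.00681, and 0.0165 with the block). It also passed without control 3 (0.18, adjusted p = 0.0107) and with library weights (0.20, adjusted p = 0.000424). EGFR and OSMR had 0.34 and 0.30 (adjusted p = 0.0583 and 0.0908), and passed with the replicate block (0.0306 and 0.0448). Without control 3 they were 0.21 and 0.16 (adjusted p = 0.0145 and 0.0496).

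Matrix substrates were mostly higher. Of 17 tested, 10 rose, 1 fell and 6 did not pass, with a median of 0.40 against -0.01 over all tested genes. By comparison, 9.58% of all tested genes rose and 13.3% fell. FN1 (fibronectin) measured 136, 126 and 121 FPKM in knockout libraries, against 39.0, 44.7 and 27.3 FPKM in control libraries, a 3.45-fold rise (adjusted p = 0.000171 by limma). TNC (tenascin-C) rose 3.08-fold, COL7A1 (anchoring fibril collagen) 1.69-fold, COL17A1 (a hemidesmosome collagen) 1.63-fold and COL18A1, a basement membrane collagen, 1.41-fold (adjusted p at most 0.00479, limma with Benjamini-Hochberg). NID2 (nidogen-2), a basement membrane linker, fell to 57.2% of control (adjusted p = 0.00384 by limma). After the GC and length correction COL18A1 did not pass (0.112, and 0.117 with the block) and COL7A1 had 0.47 in place of 0.74 on the log2 scale. Leaving out 1 library gave 5 higher substrates without knockout 2 and 12 without control 2 or control 3. HSPG2 (perlecan) had a log2 fold change of 0.57 (adjusted p = 0.0707) and passed with the block (0.0171). Without control 3 it was 0.29 (adjusted p = 0.0101), and with library weights 0.35.

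**Figure D5:**
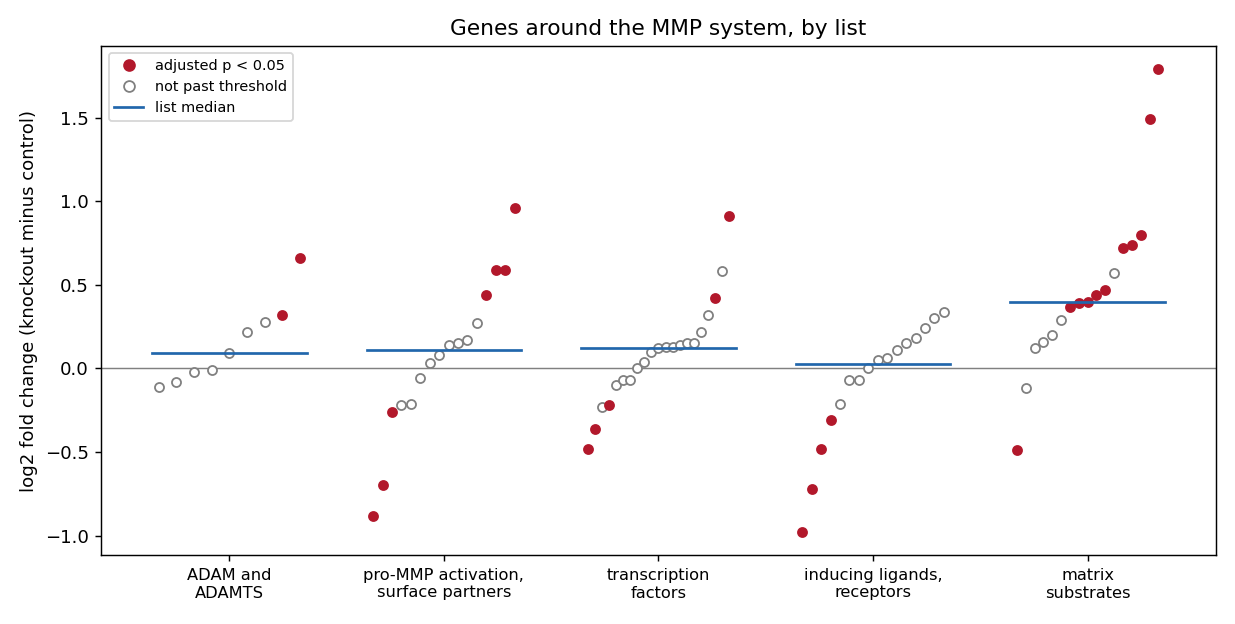
Log2 fold change (knockout minus control) of each tested gene of 5 lists around the MMP system; filled points are past an adjusted p of 0.05 and bars are list medians. Matrix substrates have a median of 0.40 with 10 of 17 genes past the threshold on the higher side, and in the ligands and receptors all 4 genes past it are lower. Of all tested genes 9.58% are past it on the higher side and 13.3% on the lower side.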

How the data were processed

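Poly(A) RNA of 3 STUB1 knockout and 3 control HaCaT libraries was sequenced. The authors deposited 1 FPKM value per gene and library, rounded to 3 decimals. Tools and build are listed without roles per the submitters' processing notes: Cufflinks, edgeR 3.6.3, featureCounts 1.6.3, HISAT2 2.0.5, Trimmomatic 0.36 and GRCh38.p13. For annotation and strand setting: not given in the sources used here. FPKM is no count, so no count test was run. Low values implied read totals, but 57.7% to 63.8% of them lay within 0.15 of a whole read, so reads were not recovered.

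Symbols came from a table of Ensembl IDs (19991 genes) and GENCODE 29 (23); positions, exonic length and GC came from GENCODE 29. log2(FPKM + 1) was fitted with limma 3.58.1 (R 4.3.3, variance trend) on 11262 genes with a mean of at least 1 FPKM, with Benjamini-Hochberg adjustment over all of them at 0.05; the script was tested on simulated data. Python 3.11.15 and scipy 1.17.1 made tables and permutation tests. Same-numbered libraries deviated together across genes (correlations of 0.375, 0.150 and 0.188, all above 0.1), which is the sole basis for the replicate block. Pairs with different numbers lay at -0.31 to 0.0665. Deviations within a group sum to 0, so these correlations are not independent. They come from the same data, so a call that passes only with the block rests on an assumed pairing.

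The members and the lists of related genes were chosen with earlier results of these data known. The text names the members, STUB1, other MMP genes of at least 1 FPKM, the cluster's neighbours, and up to 6 changed genes per list by smallest p. Other genes named were chosen after their values were seen. Of the genes this rule takes, 1 is not reported here. For members and IL6R, the fits with no filter that also changed the pseudocount, block, correction or libraries were added after seeing the data.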

Additional observations from a re-analysis of the deposited data

How the results depend on the processing

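Library weights moved the count of changed genes to 6437 over all genes, 5 among the members and 58 among the related lists, against 2579, 3 and 30; the weight estimation stopped before it converged, and under it ATF3 had a log2 fold change of 0.21, against -0.07. With no filter 5 members passed, since 10 were fitted. Leaving out 1 library gave 1030 (without knockout 2) to 4521 (without control 3) changed genes, 2 to 4 changed members and 20 to 48 changed genes of the lists; it gave 1422, 1192 and 1500 genes without knockout 1, knockout 3 and control 1. As TPM, higher genes made up 29.1% of calls (667 higher, 1622 lower) against 41.8% (1079 higher, 1500 lower); MMP1, MMP10 and MMP14 kept their direction and call. With the replicate block 3051 genes, 3 members and 37 listed genes passed, and it changed no call of a member. With no filter MMP1, MMP2 and MMP13 passed under every alternative run; MMP14 did not without control 1 (0.0545) or knockout 3 (0.0599), nor MMP10 without 1 of 4 libraries (0.0523 to 0.0978). After the GC and length correction 3 members passed, TIMP1 in place of MMP10. The few estimated reads limit MMP3 and MMP9.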

Other observations

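Related genes with a mean under 1 FPKM also differed in the fit with no filter, where 15.3% of 16782 genes passed; these were chosen after their values were seen. COL5A1, a fibrillar collagen chain, measured 0.369, 0.338 and 0.358 FPKM in knockout libraries, against 0.067, 0.090 and 0.043 FPKM in control libraries, 5.33-fold higher (limma, Benjamini-Hochberg adjusted p = 0.000758). IL1R1, the signalling receptor of interleukin-1, measured 1.10, 0.983 and 0.888 FPKM in knockout libraries, against 0.525, 0.552 and 0.485 FPKM in control libraries (adjusted p = 0.00461 by limma). TNF, an inducer of MMPs, measured 0.088, 0.151 and 0.158 FPKM in knockout libraries, against 0.313, 0.331 and 0.322 FPKM in control libraries (adjusted p = 0.00446 by limma). ADAM12, a membrane metalloprotease, averaged 0.233 ± 0.0117 FPKM in the knockout and 0.0987 ± 0.00493 FPKM in the control (SD, n = 3; limma adjusted p = 0.00153). The groups did not overlap for any of these 4 genes.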
